A study of Mus musculus with 8 samples.

Results

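The 6 genes described here are Meis1, Meis2, Meis3, Pbx2, Pbx3 and Pbx4, members of the Meis and Pbx families of homeobox transcription factors. They were chosen by their symbols out of 32285 features, not by any measured value, and other members of these families were not analysed here. Meis and Pbx proteins belong to the TALE class, in which the DNA-binding homeodomain carries extra residues in a loop between its helices. They bind DNA together, often with Hox proteins as a further partner, and they help to set the identity of limb, craniofacial and hindbrain cells. In the developing cerebellum Meis1 is known for its expression in the granule cell lineage, and Meis2 is used as a marker of several neuronal populations of the brain.

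Nuclei were taken from the petrous temporal bone (PTB), the part of the skull that surrounds the inner ear and encloses the paraflocculus, and from the paraflocculus/flocculus (PF/F), the cerebellar lobules next to it. They came from mice at postnatal day 5.5 that were either wild type (WT) or Tbx1+/-, heterozygous for the loss of Tbx1, a T-box transcription factor gene within the 22q11.2 deletion region. Tbx1+/- mice and WT littermates gave 2 libraries per genotype and tissue, 8 in all, and each library was a pool of 5 mice, so the library is the replicate and individual mice cannot be told apart. The loss of 1 Tbx1 allele is present in every cell of a Tbx1+/- mouse, and no other allele or treatment is named for any group.

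A PTB library summed to between 66835028 and 88677309 unique molecular identifiers (UMIs) over 11906 to 21868 barcodes, of which 5981 to 9977 nuclei carried 1 of 15 cell type labels given by the authors, with a median depth of 3853 to 4758 UMIs. In the PF/F the totals were 44713226 to 60627200 UMIs over 10583 to 17103 barcodes, with 9153 to 13835 nuclei in 16 labelled types and a median depth of 2610 to 3503 UMIs. Any 2 of the 8 libraries shared 11 to 60 labelled barcodes. Tbx1 itself was at 38.9 and 39.4 CPM, the UMIs of a gene per 1000000 UMIs, in the WT PTB libraries and at 26.3 and 35.7 in the Tbx1+/- ones, and at 0.0949 to 0.265 CPM in the PF/F, where so few UMIs check nothing. Levels below are CPM of the summed nuclei of a type or library, in the order WT 1, WT 2, Tbx1+/- 1 and Tbx1+/- 2, followed by the mean ± SD over the 4 libraries of a tissue. Nuclei were grouped into types with the same counts, so differences between types are descriptions with no test. In such sums, fewer cells of a type and less RNA per cell cannot be told apart.

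The genes differ widely in length, and the counts include reads from introns, so each gene is compared only with itself across types. In the GRCm38 build, Meis1 (ENSMUSG00000020160) spans chr11:18879817-19018985 on the minus strand, Meis2 (ENSMUSG00000027210) chr2:115863064-116065839 on the minus strand and Meis3 (ENSMUSG00000041420) chr7:16175090-16186504 on the plus strand. Pbx2 (ENSMUSG00000034673) spans chr17:34591266-34597400 on the plus strand, Pbx3 (ENSMUSG00000038718) chr2:34171457-34373142 on the minus strand and Pbx4 (ENSMUSG00000031860) chr8:69832491-69872292 on the plus strand. Exons cover 3.03% of Pbx3, 5.57% of Pbx4, 5.94% of Meis2 and 7.57% of Meis1, but 27.8% of Meis3 and 59.3% of Pbx2. Pbx2 overlaps Gpsm3 on the same strand, so its counts are uncertain. Meis1 overlaps Gm16140 and Gm16141, and Pbx3 overlaps C79798, each on the opposite strand. Whether counting used the strand is not given in the sources used here.

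Meis1 and Meis2 led in the same PTB type, CT1, a connective tissue type with the highest level of Vcan, the gene of the matrix proteoglycan versican (1524 CPM), and of Col3a1, the gene of type III collagen (1693 CPM). In CT1, Meis1 was at 1049, 1303, 1046 and 777 CPM (1044 ± 215, n = 4). Meis2 there was at 1705, 2037, 1615 and 1059.8 CPM (1604 ± 406, n = 4). For both genes the lowest of these 4 libraries was Tbx1+/- 2, which held 118 CT1 nuclei against 332 to 1315 in the others. After each nucleus was thinned to 1000 UMIs, 41.7% to 58.1% of CT1 nuclei had a Meis1 UMI and 46.4% to 65.8% a Meis2 UMI. Without thinning the mean shares were 75.8% and 77.9%.

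The genes parted below CT1. Meis1 was far lower in the other types, with CT3 next at 139 ± 8.04 CPM (129 to 147, n = 4), CT4 at 124 ± 7.24 CPM, CP1 at 111 ± 43.3 CPM and the lowest, CP5, at 28.2 ± 10.6 CPM. CT and CP are the authors' labels for connective tissue cells and chondrocyte progenitors. CT1 against CT3 was the only one of 14 neighbour pairs in the Meis1 order whose 4 libraries did not overlap. Meis2 instead kept an intermediate step, with CT3 at 560.2, 670.5, 550.3 and 659 CPM (610.1 ± 63.6, n = 4) and CT4 at 460.1, 391, 373 and 348 CPM (393 ± 48.0, n = 4). CT1, CT3 and CT4 were apart in every library, and these were the 2 of 14 neighbour pairs that did not overlap. Below them Meis2 ran from CP1 at 296 ± 97.7 CPM to CP5 at 60.6 ± 18.5 CPM. In the fourth type with a connective tissue label, CT2, Meis1 was at 43.9 ± 16.6 CPM and Meis2 at 62.8 ± 31.5 CPM, in the range of the chondrocyte progenitors. CT2 ranked 1 of the PTB types for Dcn and 2 for Col3a1, but by fold it was led by the transporter genes Slc6a20a (614 against 3.45 CPM in the other types) and Slc6a13 (373 against 2.98 CPM), which also lead the PF/F type labelled meningeal.

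**Figure D1:**
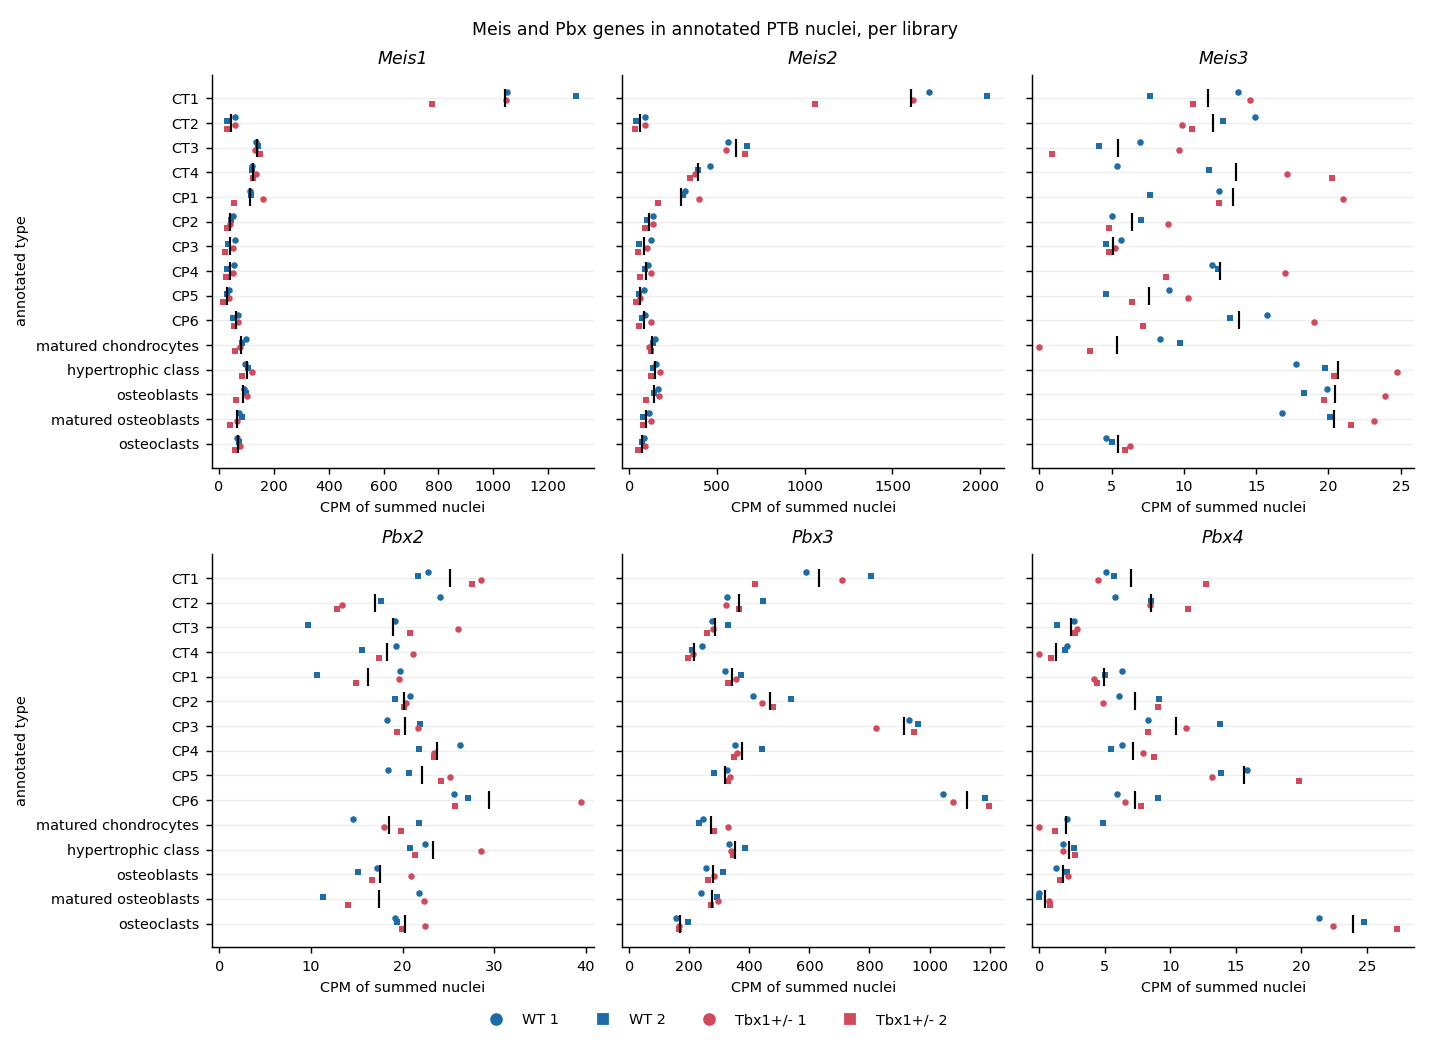
Level of each of the 6 genes in the 15 labelled PTB types, in CPM of the summed nuclei on a linear axis with its own range for each gene. Blue marks WT and red Tbx1+/-, circles replicate 1 and squares replicate 2, and the black tick is the mean of the 4 libraries. Meis1 and Meis2 peak in CT1, Pbx3 in CP6 and CP3, and Pbx4 in osteoclasts, while no neighbouring types of Meis3 or Pbx2 are apart.

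The ratio of Meis2 to Meis1 UMIs within a type restates this split, since it follows from the same counts as the levels above. CT1 had 1.52 ± 0.11 Meis2 UMIs for each Meis1 UMI (1.36 to 1.63, n = 4). CT3 had 4.39 ± 0.24 (4.15 to 4.70, n = 4) and CT4 3.19 ± 0.50 (2.77 to 3.87, n = 4). The ratio was above that of CT1 in every library of CT3, CT4 and the progenitor types CP1 to CP5, which ranged from 1.66 to 4.70. CP6, CT2, matured chondrocytes and the 3 osteoblast classes overlapped CT1, with means of 1.35 to 1.66. Osteoclasts lay below CT1 in all libraries, at 1.08 ± 0.18 (0.903 to 1.30, n = 4).

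Free RNA released from broken cells gives UMIs of an abundant gene in nuclei that do not express it, and the deposited counts are not corrected for it. In the 14 other PTB types, Meis1 was at 2.70% to 13.3% and Meis2 at 3.78% to 38.0% of the CT1 level. Of the marker genes of CT1, Col1a1, Col3a1 and Dcn are no measure of free RNA, since other types express them (Col1a1 at 224% of its CT1 level in osteoblasts and Dcn at 126% in CT2). Vcan was at 4.11% to 19.3%. Meis1 was below Vcan in 9 of the 14 types, such as CT2 at 4.21% beside 15.9% and CP2 at 3.90% beside 10.6%. It was above Vcan in 5, as in CT4 at 11.9% beside 5.24%, osteoblasts at 8.45% beside 5.88% and osteoclasts at 6.54% beside 4.11%. Meis2 was below Vcan in 7 of the 14 types. CT3 held the 38.0% of Meis2, with the Meis2 to Meis1 ratio of 4.39 beside 1.52 in CT1. The part of free RNA in the levels outside CT1 was not tested.

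Across the 15 PTB types the Meis1 and Meis2 profiles had a Pearson correlation of 0.91 on log2(mean CPM + 1), as a description over types that share libraries. Among 13126 genes, the profile most like that of Meis1 was 8430419K02Rik, with r = 0.96, a gene 5508 bp from Meis1 on the same strand of chromosome 11. The one most like Meis2 was G630016G05Rik, with r = 0.95, which lies 1386 bp from Meis2 on the opposite strand of chromosome 2. Both of these neighbours were highest in CT1, at 56.3 and 41.9 CPM. The others named by the same rule were G630016G05Rik and Meis2 for Meis1 (r = 0.92 and 0.91), and Meis1 and Mecom, a zinc finger transcription factor gene, for Meis2 (r = 0.91 each).

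Pbx3 had another order in the PTB. It was highest in CP6, at 1043, 1185, 1079 and 1197 CPM (1126 ± 76.5, n = 4), and in CP3, at 932, 961, 823 and 948 CPM (916 ± 63.0, n = 4). Every library of CP6 was above every library of CP3, and every library of CP3 was above CT1, at 589.5, 806, 709.8 and 418 CPM (631 ± 167, n = 4). CP2 followed at 468 ± 55.5 CPM, CT4 was near the bottom at 215 ± 20.0 CPM, and osteoclasts were lowest at 155, 195, 166 and 165 CPM (171 ± 17.1, n = 4). A Pbx3 UMI was found in 56.2% to 62.5% of CP6 nuclei and 13.03% to 14.5% of osteoclast nuclei at 1000 UMIs, and in means of 88.9% and 48.8% without thinning.

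CP3 and CP6 are labelled chondrocyte progenitors, and the cartilage markers led in neither. Col2a1, the gene of the main cartilage collagen, ranked 4 in CP3 and 8 in CP6 among the 15 types (1082 and 760 CPM), Acan ranked 9 and 12, and Sox9 ranked 5 and 9. The leading genes by fold over the other types were Lama1, Cacna1e and Themis in CP3 and Plpp4, Stxbp5l and Tex15 in CP6. The profiles most like that of Pbx3 were those of Spon2 (r = 0.94), Ndnf (r = 0.93) and Gm49970 (r = 0.91), the first pair highest in CP6 and the last in CP3.

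Pbx4 was low in the PTB and highest in osteoclasts, the bone-resorbing cells, whose markers Ctsk and Acp5 ranked 1 there (4606 and 1356 CPM). It was at 21.3, 24.8, 22.4 and 27.3 CPM in osteoclasts (23.9 ± 2.64, n = 4), and no library overlapped those of the next type, CP5, at 15.6 ± 2.98 CPM (13.1 to 19.8). Osteoclasts were thus highest for Pbx4 and lowest for Pbx3. Osteoblasts were at 1.78 ± 0.44 CPM, and matured osteoblasts and osteocytes had 2 UMIs in all. The genes with the most similar profiles were Baiap2, Nbea and Il15 (r = 0.92, 0.92 and 0.91), all highest in osteoclasts.

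Meis3 and Pbx2 showed no such steps in the PTB, and none of the 14 neighbour pairs of either gene was apart. Meis3 was highest in the class labelled hypertrophic chondrocyte/osteoblast at 20.6 ± 2.94 CPM, osteoblasts at 20.4 ± 2.42 CPM and matured osteoblasts at 20.4 ± 2.70 CPM (16.8 to 24.7 over the 12 values), and lowest in CP3 at 5.09 ± 0.47 CPM. Those 3 classes lay above CP3, osteoclasts (5.44 ± 0.76 CPM) and matured chondrocytes (5.39 ± 4.47 CPM) in every library. The genes most like it were Msl1, 2610307P16Rik and Heg1 (r = 0.90, 0.84 and 0.84). Pbx2 ran from 29.5 ± 6.67 CPM in CP6 and 25.1 ± 3.45 CPM in CT1 to 16.3 ± 4.32 CPM in CP1, with Shank2, Emilin2 and Gm49191 the most similar (r = 0.84, 0.81 and 0.81).

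In the PF/F, Meis1 was high in astroglia and in the progenitors of granule neurons and GABA interneurons. It was at 1120.4, 1499, 1263 and 1415 CPM in astroglia (1324 ± 167, n = 4) and at 944, 1234, 1024 and 1207 CPM in granule neuron progenitors (GNPs; 1102 ± 141, n = 4). GABA interneuron progenitors were at 938, 1168, 1038 and 1144 CPM (1072 ± 106, n = 4). These 3 types overlapped one another. In each of them the WT 2 and Tbx1+/- 2 libraries were above the WT 1 and Tbx1+/- 1 libraries.

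Below a gap, differentiated granule neurons were at 618, 737, 637 and 708 CPM (675 ± 56.6, n = 4) and the type labelled RL.early, led by the cilium genes Dnah12 and Cfap65, at 653 ± 56.3 CPM. Below the next gap lay oligodendrocytes at 332 ± 35.7 CPM and 6 further types down to pericytes at 175 ± 91.1 CPM. Last, below a further gap, were Purkinje cells at 102, 43.1, 70.9 and 78.8 CPM (73.6 ± 24.1, n = 4) and GABA interneurons at 75.0, 38.4, 31.0 and 58.1 CPM (50.6 ± 19.9, n = 4). These 3 gaps were the only ones among 15 neighbour pairs.

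**Figure D2:**
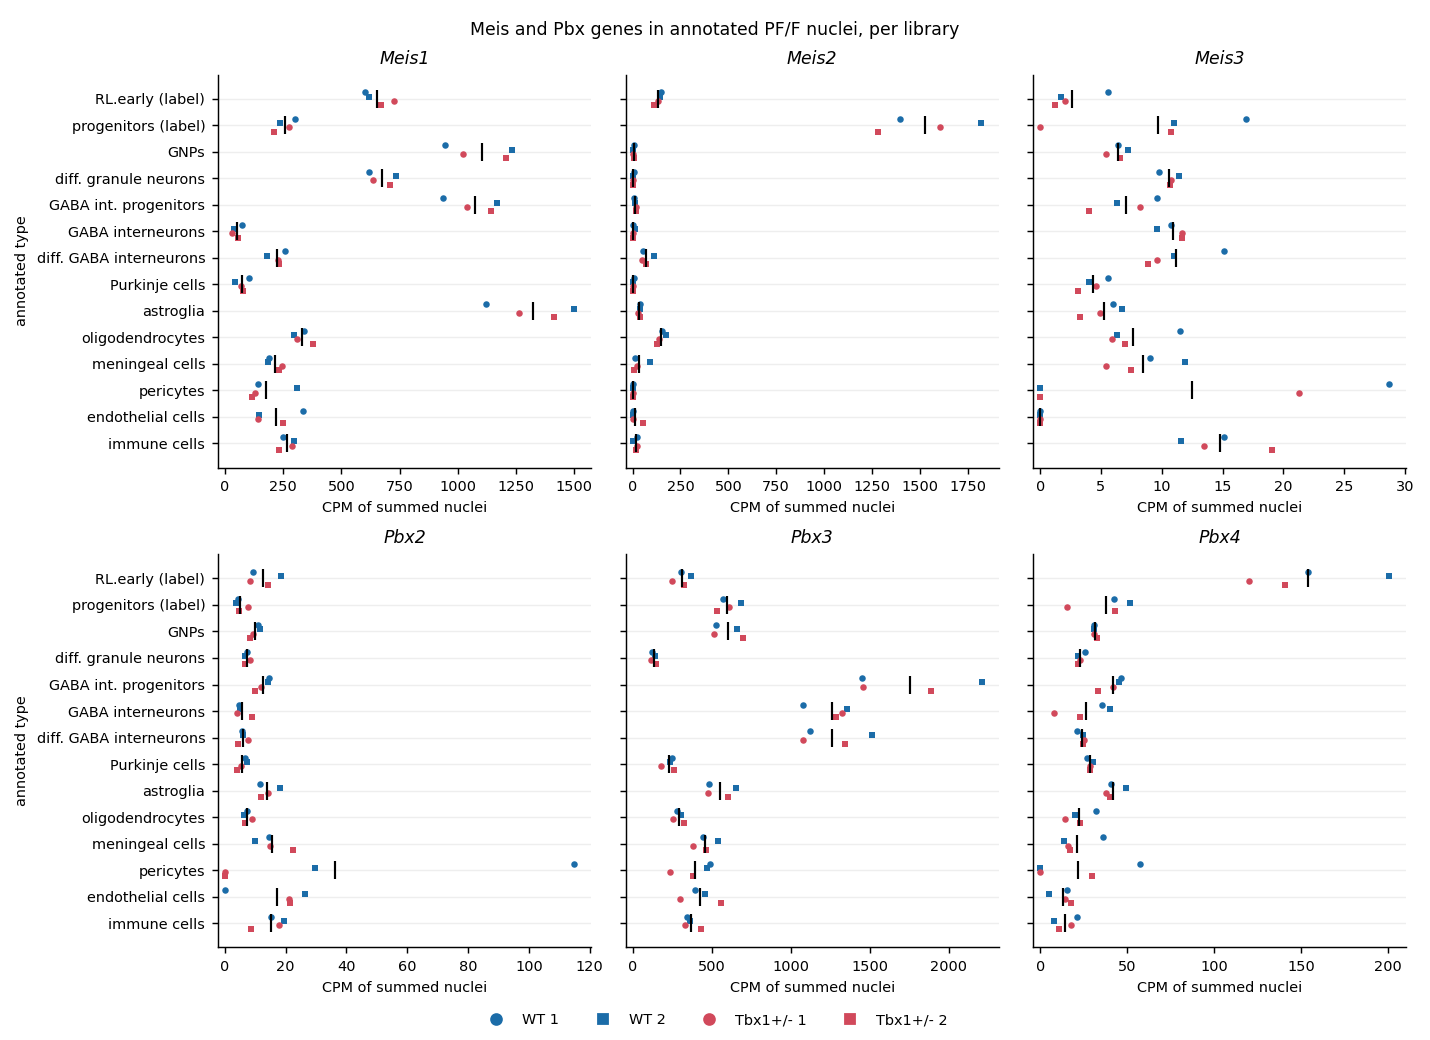
Level of each of the 6 genes in 14 of the 16 labelled PF/F types, in CPM of the summed nuclei on a linear axis with its own range for each gene, with colours, symbols and ticks as in the PTB plot. Meis1 is high in astroglia, granule neuron progenitors and GABA interneuron progenitors and lowest in Purkinje cells and GABA interneurons, Meis2 stands out in the type labelled progenitors, Pbx3 in the 3 GABA interneuron types and Pbx4 in the type labelled RL.early.

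Astroglia had the highest Slc1a3 and Aqp4 (2318 and 584 CPM) and GNPs the highest Atoh1 and Mki67 (15.2 and 252 CPM), so both carried their markers. At 1000 UMIs a Meis1 UMI was found in 63.6% to 73.6% of astroglia, 56.9% to 65.9% of GNPs and 42.7% to 47.7% of differentiated granule neurons, against 3.93% to 7.55% of Purkinje cells (means of 94.6%, 87.2%, 76.6% and 20.0% without thinning). Differentiated granule neurons held the most labelled nuclei, and Neurod1, Neurod2, Fat2, Cntn2 and Gabra6 were used as the scale of their free RNA. Meis1 was above the highest of these marker ratios in 5 of 15 other types, which were astroglia, GNPs, GABA interneuron progenitors, the type labelled RL.early and oligodendrocytes. In the other 10 types it was within the marker range. This scale is rough, since Neurod1 was at 102% in GNPs, Neurod2 at 105% in differentiated GABA interneurons and Gabra6 at 105% in immune cells. Astroglia and GNPs also had more Meis1 than differentiated granule neurons, so free Meis1 need not follow these markers. The part of free RNA in these levels was not tested. Purkinje cells held 10.9% of the granule neuron level against a median marker ratio of 13.6%, and GABA interneurons 7.50% against 10.4%, so these lowest levels could not be told apart from free RNA.

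Meis2 in the PF/F was concentrated in a small type labelled progenitors, with 152 nuclei, 20 to 72 per library. It was at 1395, 1822, 1605 and 1279 CPM there (1525 ± 239, n = 4). Oligodendrocytes came next at 147 ± 21.1 CPM, followed by the type labelled RL.early at 133 ± 15.1 CPM. In the type labelled progenitors, 60.0% to 80.6% of nuclei had a Meis2 UMI at 1000 UMIs, and the ratio of Meis2 to Meis1 UMIs was 6.06 ± 1.23, against at most 0.45 in the mean of any other PF/F type.

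The label of this type went against its markers. Sox2 was at 1.06 CPM, the lowest of the 16 types, and Mki67 at 21.2 CPM, with only one type lower. Its nuclei were deep, with a median of 6704 to 10267 UMIs per library. By fold over the other types Meis2 led it (1525 against 24.0 CPM), followed by Tafa1 (1573 against 24.9 CPM), Cpne4, Gm49678, G630016G05Rik and Lhx9, a LIM homeobox transcription factor gene. It is called here the Meis2, Tafa1 and Lhx9 type. The profiles most like that of Meis2 across the 16 types were Gm43154 (r = 0.93), its neighbour G630016G05Rik (r = 0.89) and Pdzrn4 (r = 0.89), all highest in that type.

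The granule lineage had hardly any Meis2. GNPs were at 7.77, 2.57, 3.86 and 5.41 CPM (4.90 ± 2.24, n = 4) and differentiated granule neurons at 3.85 ± 1.48 CPM. Purkinje cells were at 3.02 ± 3.11 CPM, so the 3 types overlapped. At 1000 UMIs a Meis2 UMI was found in 0.158% to 0.663% of GNPs (median depth 2293.5 to 2966 UMIs) and 0.0454% to 0.629% of Purkinje cells (5653 to 8533 UMIs), with unthinned means of 0.971% and 1.55%. A level in GNPs above that of Purkinje cells was not detectable at this depth. Meis1 and Meis2 were found together in 0.103% to 0.326% of GNPs. In pericytes 0 Meis2 UMIs were counted among 216921 UMIs, which allows a level of up to 13.8 CPM over the 4 libraries, for counting error only.

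Pbx3 was highest in the GABA interneuron types of the PF/F. GABA interneuron progenitors were at 1454, 2214, 1459.7 and 1889.6 CPM (1754 ± 368, n = 4), differentiated GABA interneurons at 1121, 1518, 1077 and 1344 CPM (1265 ± 205, n = 4) and GABA interneurons at 1076, 1357, 1326 and 1288 CPM (1262 ± 127, n = 4). The 3 types overlapped, and all 12 values were above those of every other type. Gad2, which makes GABA, and Pax2, a marker of young interneurons, ranked 4 and 2 in the progenitors (26.6 and 179 CPM).

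A Pbx3 UMI was found in 68.4% to 81.5% of GABA interneuron progenitors at 1000 UMIs (92.7% in the mean without thinning). GNPs were at 527, 662, 516 and 699.7 CPM (601 ± 93.3, n = 4) and astroglia at 555 ± 88.8 CPM. Differentiated granule neurons, at 126, 141, 118 and 148 CPM (133 ± 13.7, n = 4), were apart from Purkinje cells at 231 ± 34.6 CPM (182 to 259.6). The gene most like Pbx3 among 15731 was C79798 (r = 0.99), which overlaps it on the opposite strand, so their reads may not be told apart, and BC052040 followed with r = 0.76 among those named here.

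Pbx4 was highest in the Dnah12 and Cfap65 type, labelled RL.early, at 154, 201, 120.1 and 141 CPM (154 ± 34.1, n = 4). All 4 libraries were above every other type, with astroglia next at 42.0 ± 5.16 CPM (37.6 to 49.5), GABA interneuron progenitors at 41.7 ± 5.79 CPM, GNPs at 31.3 ± 1.08 CPM, Purkinje cells at 28.6 ± 1.45 CPM and differentiated granule neurons at 22.9 ± 1.93 CPM. At 1000 UMIs, 10.6% to 17.6% of the nuclei of this type had a Pbx4 UMI, against 2.73% to 2.97% of Purkinje cells (means of 36.6% and 17.7% without thinning).

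The label of this type was not borne out by its markers. Its 585 nuclei had Sox2 at 41.0 CPM, which ranked 4 of 16, and Mki67 at 53.5 CPM, which ranked 10. Their leading genes were Dnah12 (1808 against 1.35 CPM in the other types), Ak9, Cfap65 and Dnah6, of which the Dnah and Cfap genes encode parts of motile cilia. The profiles most like that of Pbx4 were Ccdc151 (r = 0.96), Riiad1 (r = 0.92) and Pih1d2 (r = 0.92), all highest in the same type.

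Meis3 and Pbx2 were low in all PF/F types. Meis3 was at 14.8 ± 3.18 CPM in immune cells, 10.6 ± 0.67 CPM in differentiated granule neurons, 6.39 ± 0.74 CPM in GNPs and 4.31 ± 1.04 CPM in Purkinje cells. Pbx2 was at 13.9 ± 2.94 CPM in astroglia, 9.98 ± 1.48 CPM in GNPs and 7.22 ± 0.75 CPM in differentiated granule neurons. No neighbour pair of Pbx2 was apart, and its mean of 36.1 CPM in pericytes rested on 6 UMIs. Their most similar profiles were Nap1l2, Slc39a3 and Gtpbp8 for Meis3 (r = 0.88, 0.88 and 0.86) and Aamp, Alg14 and Sh3bgrl for Pbx2 (r = 0.95, 0.93 and 0.93), and all but the first pair of Meis3 were highest in the few pericytes.

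The steps between labelled stages were measured within each library, as the log2 ratio of CPM in the later to the earlier type. From GNPs to differentiated granule neurons, Pbx3 was lower by far more than the others, at -2.17 ± 0.083 (n = 4 libraries). Meis1 was at -0.70 ± 0.070, Pbx2 at -0.46 ± 0.28 and Pbx4 at -0.45 ± 0.16, while Meis3 was higher at 0.74 ± 0.17. Each of these had the same sign in all 4 libraries. Meis2 was at -0.31 ± 0.35, with -0.036 and -0.025 in WT 2 and Tbx1+/- 1, at levels in both types that overlapped those of Purkinje cells, so no direction is read from it. In nuclei with at least 2000 genes Meis1 was at -0.84 ± 0.089 and Pbx3 at -1.99 ± 0.23. Pbx2 was then at -0.33 ± 0.36, with 0.14 in Tbx1+/- 1, so its sign did not hold. The share of nuclei with a Pbx3 UMI at 1000 UMIs was 35.0% to 43.2% in GNPs and 9.35% to 11.1% in differentiated granule neurons. In GNPs Meis1 and Pbx3 were found together in 21.0% to 29.0% of nuclei, beside 20.5% to 28.1% for the product of their shares.

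From GABA interneuron progenitors to differentiated GABA interneurons, Meis1 was lower at -2.27 ± 0.34 and Meis2 higher at 2.34 ± 0.80, in all 4 libraries each. Meis1 went from 1072 ± 106 to 224 ± 31.6 CPM, and Meis2 from 14.5 ± 5.91 to 53.4, 113, 49.9 and 68.3 CPM (71.2 ± 29.3). Pbx3 was lower by a smaller step, at -0.46 ± 0.072, with Pbx4 at -0.80 ± 0.28 and Pbx2 at -1.10 ± 0.31, while Meis3 was at 0.70 ± 0.37. In nuclei with at least 2000 genes Pbx3 was at -0.35 ± 0.14 and Meis3 at 1.21 ± 0.38. The granule and GABA interneuron lineages were alike in the lower Meis1, Pbx3 and Pbx4 and higher Meis3 of their later types. Pbx2 was also lower in both, but its granule step did not keep its sign in nuclei with at least 2000 genes. The lineages differed in which of Meis1 and Pbx3 had the larger step. Meis2 was higher in the later GABA type, while no direction was read from its low levels in the granule lineage.

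In the PTB, the summed CP types against the summed CT types were at -2.93 ± 0.42 for Meis1 and -2.58 ± 0.28 for Meis2, both with the same sign in all 4 libraries. CT1 carries the CT sum, since Meis1 was at 1044 CPM there and at 139, 124 and 43.9 CPM in CT3, CT4 and CT2, of which CT2 lies below CP1 at 111 CPM, and the share of CT1 among the nuclei differed between libraries. Pbx4 was at 0.71 ± 0.18 and Pbx3 at 0.32 ± 0.41. Along the bone lineage, Pbx3 was at -0.98 ± 0.32 in matured chondrocytes against the CP types. That step was -0.51 ± 0.085 in nuclei with at least 2000 genes. CP6 and CP3 had the most Pbx3 of the CP types (1126 and 916 CPM). CP1, CP4 and CP5 (343, 376 and 318 CPM) were nearer to matured chondrocytes (273 CPM). In osteoblasts against the hypertrophic class, Pbx3 was at -0.34 ± 0.061 and Pbx2 at -0.41 ± 0.049. In matured osteoblasts against osteoblasts, Meis1 was at -0.46 ± 0.21 and Meis2 at -0.54 ± 0.27, lower in all 4 libraries. As shares of the CT1 level, Meis1 was at 8.45% in osteoblasts and 6.24% in matured osteoblasts, beside Vcan at 5.88% and 5.74%. Meis2 was at 8.94% and 6.14%. The part of free RNA in this step was not tested.

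Between the tissues, 5 of the 6 genes differed in the sums of all labelled nuclei, beside 60.8% of all 21639 genes tested (13146, of which 6113 were higher in the PTB and 7033 lower). A call was an adjusted p under 0.05 with a change above 1.5-fold in edgeR's quasi-likelihood test over the 8 libraries. The study's methods describe isolating both tissues from the mice, so PTB and PF/F pools may share mice. The test treated the 8 libraries as independent. With most genes called, 5 of 6 is near the background. Meis2 was at 349, 245, 298 and 129 CPM in the PTB (255 ± 94.2) and 33.4, 41.1, 23.8 and 38.8 CPM in the PF/F (34.3 ± 7.69), higher in the PTB by a log2 difference of 2.86 (SE 0.29, adjusted p 1.59e-05). Meis1 went the other way, at 191, 136, 170.5 and 66.5 CPM in the PTB (141 ± 54.7) and 697, 812, 752 and 773 CPM in the PF/F (758 ± 47.9), a log2 difference of -2.46 (SE 0.28, edgeR adjusted p 3.75e-05).

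Pbx4 was at 5.76, 6.86, 5.55 and 7.12 CPM in the PTB and 31.6, 31.0, 28.2 and 28.8 CPM in the PF/F, a log2 difference of -2.26 (SE 0.10, edgeR adjusted p 5.09e-08). Pbx2 was higher in the PTB, at 20.4 ± 2.41 against 9.14 ± 0.76 CPM, by 1.14 (SE 0.11, edgeR adjusted p 1.17e-05), and Meis3 at 13.7 ± 2.54 against 8.48 ± 0.62 CPM, by 0.67 (SE 0.14, edgeR adjusted p 0.00164). The Meis3 difference was 0.52, below the 1.5-fold limit, without PTB Tbx1+/- replicate 1, which at 17.4 CPM was above the other PTB libraries at 11.9 to 12.6 CPM. In none of the 5 did the PTB and PF/F libraries overlap, and how many of all genes share this was not counted.

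Pbx3 did not pass the test, at 406 ± 27.1 CPM in the PTB and 469 ± 60.8 CPM in the PF/F, a log2 difference of -0.23 (SE 0.12, edgeR adjusted p 0.104). The 4 comparisons of PTB and PF/F libraries with the same genotype and replicate number gave log2 ratios of -0.44 to -0.042 for Pbx3, -3.54 to -1.87 for Meis1 and 1.73 to 3.65 for Meis2. The median over all genes was -0.056. Tissue and dissection, pulverization of bone included, cannot be told apart in these sums. The PTB labels name connective tissue, cartilage and bone types, osteoclasts included, while the PF/F labels also name immune, meningeal and endothelial cells. The 32101 PTB and 9721 PF/F barcodes with no label are in neither sum.

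**Figure D3:**
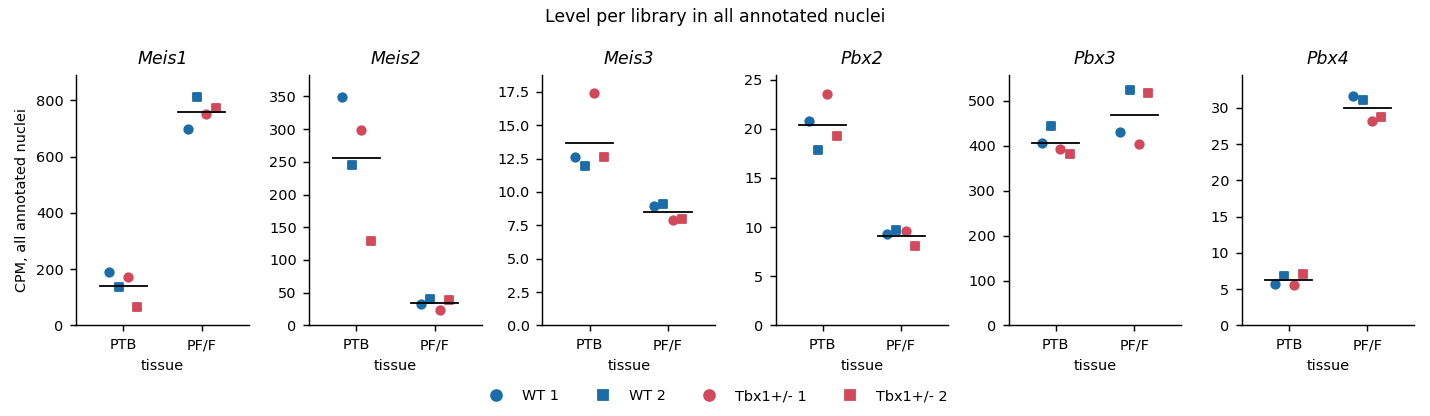
Level of each gene over all labelled nuclei of a library, in CPM on a linear axis from 0, in the PTB and the PF/F, with 4 libraries each (blue WT, red Tbx1+/-, circles replicate 1, squares replicate 2, black line the mean). Meis2, Pbx2 and Meis3 are higher in the PTB and Meis1 and Pbx4 in the PF/F with no overlap, while the Pbx3 libraries overlap.

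Of 12 other TALE class genes and partners counted as a list, 8 were called between the tissues, beside the same 60.8% of all genes. Higher in the PTB were Mkx (log2 difference 3.95), a regulator of tendon, Irx3 (3.50), Irx5 (2.83), Pbxip1 (2.68), whose product binds Pbx proteins, and Pknox2 (1.16). Irx6 was also called higher there, but on 76 UMIs in the 4 PTB libraries and 2 in the 4 PF/F libraries, so its size is not given. Lower in the PTB were Irx4 (-2.67, on 9 UMIs in the PTB and 66 in the PF/F) and Pknox1 (-0.69). Among the 12, Pknox2 had the highest CPM in both tissues, 137 ± 3.90 in the PTB and 60.8 ± 5.99 in the PF/F, on a scale that is not per length. The median log2 difference of the 6 Meis and Pbx genes was 0.22.

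Between genotypes, no Meis or Pbx gene was called in the sums of labelled nuclei. In the PTB, edgeR called 0 of 6, with percent called 0 over 20250 genes, and 0 of 6 had an unadjusted p under 0.05, beside 1.07% of all genes (217). DESeq2 called 0 genes, with 114 at an unadjusted p under 0.05. In the PF/F edgeR called 0 of 6, again with 0% of 20756 genes, and 0 of 6 had an unadjusted p under 0.05, beside 0.477% of all genes (99), with 0 calls and 31 genes at an unadjusted p under 0.05 by DESeq2. With 2 libraries against 2, an exact two-sided permutation test of 1 gene could not go below p = 0.33. The median log2 difference of the 6 genes was -0.065 in the PTB and -0.11 in the PF/F, beside -0.0030 and 0.0025 over all genes tested.

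The largest genotype differences in the PTB sums were those of Meis1 and Meis2. Meis1 was at 191 and 136 CPM in WT and 170.5 and 66.5 in Tbx1+/-, a log2 difference of -0.47 (SE 0.45, edgeR adjusted p 1.00). Meis2 was at 349 and 245 CPM in WT and 298 and 129 in Tbx1+/-, a log2 difference of -0.48 (SE 0.41, edgeR adjusted p 1.00). The genotypes overlapped for both genes, and Tbx1+/- replicate 2 was the lowest library. Without that library the differences were 0.063 and 0.0074.

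These sums moved with the number of CT1 nuclei. CT1 made up 13.2% and 5.55% of the labelled nuclei in the WT libraries and 10.1% and 1.84% in the Tbx1+/- libraries. CT1 held 63.9%, 45.1%, 50.9% and 15.7% of all Meis1 UMIs and 57.0%, 39.0%, 44.9% and 11.05% of all Meis2 UMIs. Without CT1 nuclei, an alternative added after the data were seen, Meis1 was at 78.0 and 78.1 CPM in WT and 91.3 and 56.8 in Tbx1+/-, and Meis2 at 169.9 and 156 in WT and 179 and 116 in Tbx1+/-. The edgeR log2 differences were then -0.078 (SE 0.22) and -0.15 (SE 0.21).

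Tbx1+/- replicate 2 stayed the lowest library without CT1 for both genes, as it did for Vcan (104 against 137 to 182 CPM), the marker of CT1. With the makeup of types held the same in every library, the mean log2 difference within replicate numbers was -0.26 for Meis1, against -0.60 as found, and -0.31 for Meis2, against -0.57. These means rest on replicate 2, at -0.62 for each gene, while replicate 1 was at 0.089 for Meis1 and 0.0068 for Meis2. In the edgeR fit with the replicate number as a block, Meis1 was at -0.59 (edgeR unadjusted p 0.017) and Meis2 at -0.57 (unadjusted p 0.010), with adjusted p of 0.94 and 0.90. In that fit 1043 of 20250 genes had an unadjusted p under 0.05. The part of dissection in the CT1 share was not tested.

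**Figure D4:**
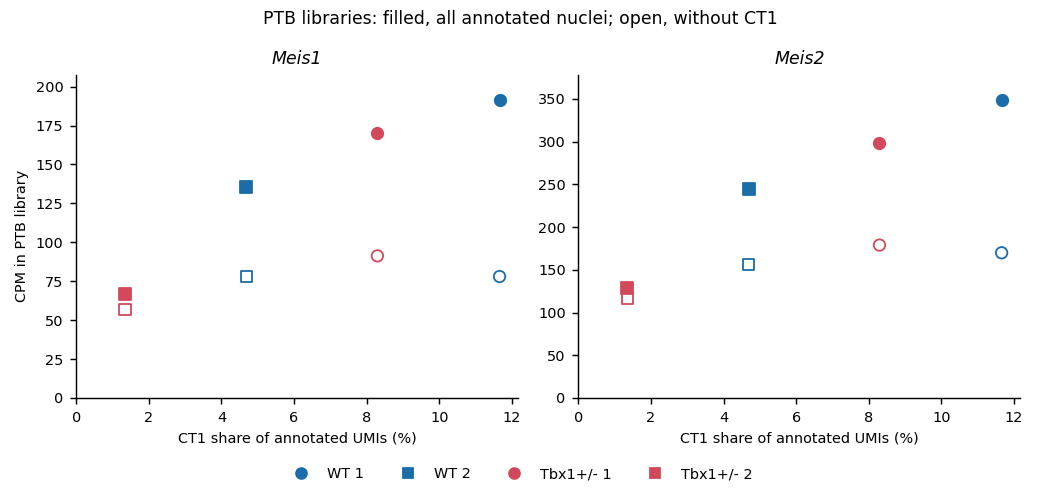
Level of Meis1 and Meis2 in the 4 PTB libraries, in CPM, against the percent of labelled UMIs in CT1, over all labelled nuclei (filled) and over those that are not CT1 (open), with blue WT, red Tbx1+/-, circles replicate 1 and squares replicate 2. Tbx1+/- replicate 2 has the smallest CT1 share (1.35% of UMIs) and the lowest level of both genes with and without CT1.

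Of the other genes in the PTB sums, Meis3 was at 12.6 and 11.9 CPM in WT and 17.4 and 12.6 in Tbx1+/- (log2 difference 0.29, SE 0.19). Pbx2 was at 0.14 (SE 0.16), Pbx3 at -0.13 (SE 0.093) and Pbx4 at 0.0046 (SE 0.20). In the PF/F sums, Meis1 was at 0.034 (SE 0.17), Meis2 at -0.23 (SE 0.26), Meis3 at -0.16 (SE 0.12), Pbx2 at -0.091 (SE 0.14), Pbx3 at -0.033 (SE 0.20) and Pbx4 at -0.12 (SE 0.10). In the test of tissue by genotype 0 of 6 genes were called by edgeR, with 0% of 22148 genes, and 0 of 6 had an unadjusted p under 0.05, beside 0.899% of all genes (199), and DESeq2 called 0, with 103 genes at an unadjusted p under 0.05. With the replicate number as a block edgeR called 0, and 2 of 6 had an unadjusted p under 0.05, beside 812 of 22148 genes.

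Within single types, the 6 genes passed the filter on low counts in 152 of 174 fits, 82 of 90 over the 15 PTB types and 70 of 84 over the 14 PF/F types with enough nuclei. None of the 82 PTB fits was called by edgeR, with 0% of all 187198 fits of genes in types, and 2 of the 82 had an unadjusted p under 0.05, beside 1.81% of all fits (3384). DESeq2 called 0 in the PTB types, with 544 at an unadjusted p under 0.05. None of the 70 PF/F fits was called, beside 0.000619% of 161523 (1 call), and 4 of the 70 had an unadjusted p under 0.05, beside 1.32% of all fits (2135). DESeq2 called 2 in the PF/F types, with 205 at an unadjusted p under 0.05, and 0 of its calls were for the 6 genes.

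The 6 fits with an unadjusted p under 0.05 all had an edgeR adjusted p of 1.00, and 5 of them are described. Meis2 in GABA interneuron progenitors was at 6.39 and 14.2 CPM in WT and 17.0 and 20.2 in Tbx1+/- (log2 difference 0.93, SE 0.39), on 12 to 35 UMIs. These levels are near those of types with hardly any Meis2. The difference was 0.38 without WT replicate 1 and 1.55 without WT replicate 2.

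Meis3 in CT4 was at 5.35 and 11.7 CPM in WT and 17.2 and 20.2 in Tbx1+/- (1.09, SE 0.47). Pbx4 in GABA interneurons was at 35.2 and 40.0 CPM in WT and 7.76 and 22.6 in Tbx1+/- (-0.90, SE 0.40), with 2 UMIs in Tbx1+/- replicate 1. Meis1 in matured osteoblasts and osteocytes was at 71.4 and 83.0 CPM in WT and 65.6 and 40.6 in Tbx1+/- (-0.56, SE 0.25). The genotypes did not overlap in these 3, and none passed after adjustment over all genes. With 2 libraries against 2, such a lack of overlap has a two-sided permutation p no lower than 0.33. Their size depended on single libraries. Meis3 in CT4 was at 0.66 without WT replicate 1 and 1.77 without WT replicate 2, Pbx4 in GABA interneurons at -2.26 without Tbx1+/- replicate 2, and Meis1 in matured osteoblasts and osteocytes at -0.93 without Tbx1+/- replicate 1 and -0.28 without Tbx1+/- replicate 2.

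Meis2 in meningeal cells was at 10.8 and 89.1 CPM in WT and 23.0 and 8.68 in Tbx1+/-, on 6, 45, 17 and 7 UMIs, a log2 difference of -1.62 (SE 0.69). The genotypes overlapped, and WT replicate 2 stood apart from the other 3 libraries. With the replicate number as a block it was called, at -1.54 (SE 0.39, edgeR adjusted p 0.032), beside 60 calls among all 161523 fits in PF/F types. Without WT replicate 2 it was at 0.52, and without WT replicate 1 or Tbx1+/- replicate 1 at -2.47. Meis2 in differentiated GABA interneurons, at 53.4, 113, 49.9 and 68.3 CPM, had a log2 difference of -0.49 (SE 0.34). It was -0.96 without WT replicate 1, and again WT replicate 2 was the highest. Among the 12 TALE class genes and partners, edgeR called 0 of 138 fits in PTB types and 0 of 79 in PF/F types, with 5 and 0 at an unadjusted p under 0.05.

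**Figure D5:**
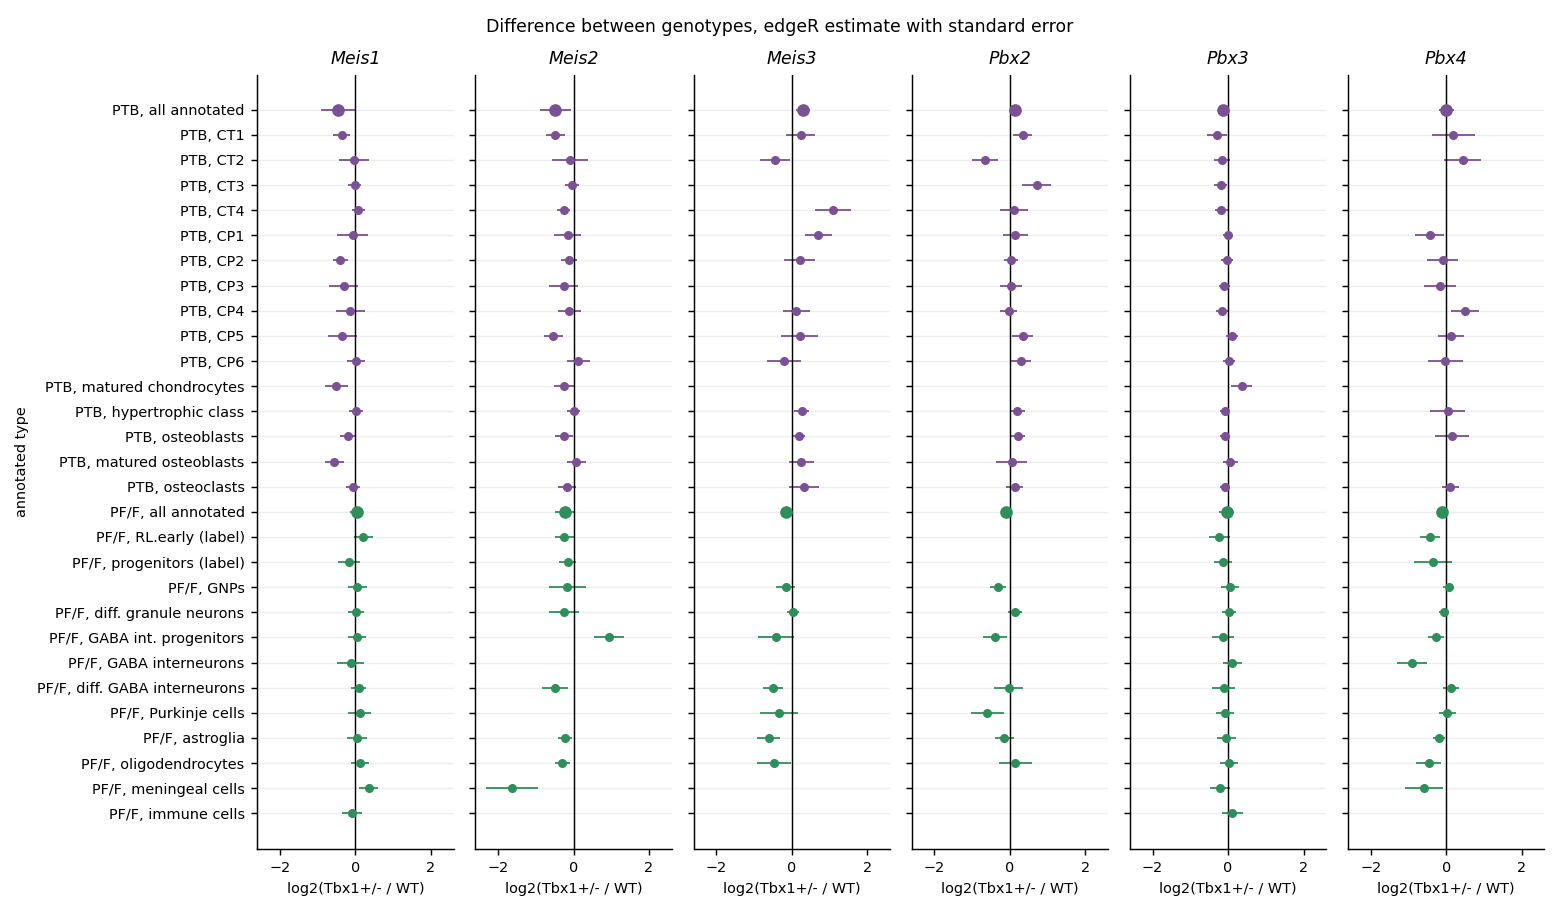
Log2 difference of Tbx1+/- against WT for each gene in the labelled types described that passed the filter, from edgeR, with bars of 1 SE, for the PTB (purple) and the PF/F (green); the large dot is the sum of all labelled nuclei and a missing dot did not pass the filter. None of those plotted is called after adjustment, and Meis2 in meningeal cells (-1.62) lies farthest from 0 among the 5 described.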

How the data were processed

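Single-nucleus RNA was sequenced with 10x Genomics chemistry from the PTB and PF/F, in 2 libraries per genotype and tissue. The authors deposited unnormalized UMI counts per gene and barcode, made with Cell Ranger 7.0.0 on mm10 per the submitters' processing notes. Introns were counted. The methods describe a later correction for ambient RNA that these deposited counts do not hold, and name no doublet removal. Cell type labels are the authors' own deposited annotation, and unlabelled barcodes entered no test.

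Raw UMIs of the labelled nuclei were summed per library, and per library and type. Genotype was tested within a tissue and within each type with at least 20 nuclei in every library, tissue over the 8 libraries with genotype as a term, and tissue by genotype as an interaction. Tests were edgeR 4.0.16 quasi-likelihood fits (R 4.3.3) on genes that passed filterByExpr, with TMM factors and Benjamini-Hochberg adjustment over all genes of the fit, and a call needed an adjusted p under 0.05 and a change above 1.5-fold. The scripts were tested on simulated data. Adjusted p-values measure the spread between pooled libraries. DESeq2 1.42.0, other normalizations and filters, nuclei with at least 2000 genes, removal of the 8% of nuclei with most UMIs as possible doublets, a replicate block and each library left out were the alternatives, and fits without CT1 nuclei or with the makeup of types held fixed were added after seeing the data. Shares of nuclei are expected shares after thinning to 1000 UMIs. Intervals and floors cover counting error only, and a floor is 3 counts.

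The study describes separate batches of animals, but no label says that the same replicate number of both genotypes shares a batch. The main tests had no replicate block, and no fit had a term for mice that the tissues may share. Replicate numbers were taken as pairs only in the block alternative and in comparisons within replicate numbers. Over genes, which are not independent replicates, deviations of same-numbered libraries from their group means correlated at r = 0.48 in the PTB and 0.55 in the PF/F.

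The named genes are the 6 Meis and Pbx genes, those of 12 listed TALE genes and partners that were called or highest, and for each of the 6 the 3 genes with the most similar log2(mean CPM + 1) across types among those with at least 10 CPM in a type. One of these, and the values of 2 of the 16 PF/F types, are not reported here. The genes and lists were chosen with earlier results of these data known. Gene positions are from GENCODE vM21 on GRCm38, which matched 32158 of 32285 features (99.6%). Summaries and plots used Python 3.11.15, numpy 2.4.6, scipy 1.17.1, pandas 2.3.3 and matplotlib 3.10.9.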

Additional observations from a re-analysis of the deposited data

Results flagged for a closer look

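Unlabelled PTB barcodes held more Meis1 than any library of labelled PTB nuclei. Their mean was 276 CPM, with 214 and 313 in WT and 282 and 293 in Tbx1+/-, while labelled nuclei reached at most 191 CPM. In the PF/F, unlabelled barcodes held more Meis2, with a mean of 127 CPM (131 and 166 in WT, 68.6 and 141 in Tbx1+/-) against at most 41.1 CPM in labelled nuclei. Pbx4 in unlabelled PTB barcodes had a mean of 10.9 CPM, 8.12 to 12.9 over the libraries, against at most 7.12 CPM in labelled nuclei. The PTB labels cover the study's connective tissue, chondrocyte, osteoblast and osteoclast set. The study kept more bone nuclei than the 31076 labelled here, and it names immune cells and neurons among those kept. In the PF/F, the 48237 labelled nuclei equal the number that the study kept after removing low-quality nuclei. Unlabelled PF/F barcodes thus appear to be ones that it did not keep. Which cells these 32101 PTB and 9721 PF/F barcodes hold was not tested here.

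The genotype difference of Meis3 had opposite signs in the tissues. Both Tbx1+/- libraries lay above both WT libraries in the PTB, replicate 2 by little (12.64 against 12.62 CPM in WT replicate 1), and below both in the PF/F, a difference of genotype differences of 0.46 on the log2 scale (SE 0.24). In the edgeR interaction test it had an unadjusted p of 0.093 and an adjusted p of 1.00, so it did not pass. With a library left out this difference was 0.21 to 0.67 and the PTB difference 0.041 to 0.51, the lowest without PTB Tbx1+/- replicate 1.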

How the results depend on the processing

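The largest changes came in the genotype fits within types. In the PTB types edgeR called 0 genes, but 96 with no filter on low counts, 71 with the replicate block and 29 to 613 with a library left out. In the PF/F types it called 1, but 31 with no filter, 60 with the replicate block, 20 to 236 with a library left out and 2 by DESeq2. Of the 70 fits of Meis and Pbx genes in PF/F types, 1 was called with the replicate block, Meis2 in meningeal cells at -1.54. Some fits with a PF/F library left out also called genes of this set. They leave 1 library in a group, so those calls are not read here. The background was 60 calls among all 161523 fits. The replicate block changed no other call of these genes.

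Tissue calls numbered 12985 to 13363 with a library left out. The Meis3 tissue difference was 0.52 to 0.75 then, and below the limit without PTB Tbx1+/- replicate 1. It and the 5 others kept their direction under every alternative.

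Some genotype differences turned direction. Pbx4 in PTB sums, at 0.0046 in the main fit, was at -0.0023 with the replicate block, -0.017 without the 8% of nuclei with most UMIs and -0.0086 without CT1. Its mean within replicate numbers was -0.00063 as found and 0.088 with the makeup held fixed. Pbx3 in PF/F sums was at 0.014 in nuclei with at least 2000 genes, and the Meis2 tissue by genotype difference at 0.090 without CT1. With a library left out, PTB sums ran from -1.30 to 0.063 for Meis1, -1.20 to 0.0074 for Meis2, -0.0032 to 0.29 for Pbx2 and -0.18 to 0.18 for Pbx4. PF/F sums ran from -0.069 to 0.14 for Meis1, -0.63 to 0.069 for Meis2, -0.23 to 0.027 for Pbx2 and -0.23 to 0.12 for Pbx3. Meis2 in meningeal cells ran from -2.47 to 0.52. Tissue by genotype differences ran from -1.32 to 0.036 for Meis1, -0.97 to 0.24 for Meis2, -0.28 to 0.14 for Pbx3 and -0.055 to 0.31 for Pbx4. The cause was not tested.

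The leading type stayed the same in 8 of 8 settings for Meis1, Meis2, Pbx3 and Pbx4 in both tissues and for Pbx2 in the PTB, in 4 of 8 for Meis3 in the PTB, 5 of 8 for Meis3 in the PF/F and 7 of 8 for Pbx2 in the PF/F. Of the steps between stages, 28 moved by less than the spread between libraries in nuclei with at least 2000 genes and 9 moved by more. Levels under 20 CPM rest on few UMIs per type, which limits Meis3, Pbx2 and Pbx4 most.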
